A study of Rattus norvegicus with 12 samples.

Results

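The immediate early genes followed here were Fos, Fosb, Jun, Junb, Egr1, Egr2, Atf3, Ier2, Ier3 and Dusp1, 10 genes of the 14217 that a probe set of the Affymetrix Rat Genome 230 2.0 array named alone. They were chosen by name, with earlier results of these data known. In all, 15 probe sets named 1 of them and no other gene, and each gene was read from its probe set of highest mean intensity, with the others as a check. Gene expression was measured in the cells of bronchoalveolar lavage fluid (BALF), the cells washed from the airways and air spaces, of male 8-week-old Sprague-Dawley rats. COMB rats received a tail vein injection of 0.5 mg/kg lipopolysaccharide (LPS) and then spent 6 h in hypobaric hypoxia at 405.35 mmHg, which equals 5000 m of altitude or 11.2% O2. LPS rats received the same dose in normoxia. HPO rats had the hypoxia alone. CTL rats received saline in normoxia, and all rats went without food and water during the experiment. Each group had 3 arrays, and each array held the pooled RNA of 3 rats, except that 2 COMB pools were labelled with 2 rats each (pools 2-3 and 10-11). The p-values below measure the spread between such pools.

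Immediate early genes are transcribed within minutes of a stimulus because the factors that switch them on are already present in the resting cell, and their mRNAs are short-lived. Fos and Fosb encode Fos proteins and Jun and Junb encode Jun proteins, which pair through leucine zippers to form the transcription factor AP-1. Egr1 and Egr2 encode zinc finger factors, Atf3 a stress-induced leucine zipper factor that restrains inflammatory genes in macrophages, Ier2 a nuclear protein, Ier3 a protein that affects survival and NF-kB and MAP kinase signalling, and Dusp1 the phosphatase that switches off p38 and JNK. In alveolar macrophages, the main cells of lavage fluid from healthy lungs, LPS acts through the receptor Tlr4 and raises these mRNAs quickly and for a short time.

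In RefSeq (build GRCr8), Jun lay at chr5:115009900-115012993, Fos at chr6:110852188-110855054, Ier3 at chr20:2933173-2934377, Atf3 at chr13:105274103-105331653, Fosb at chr1:88082324-88089506 and Junb at chr19:40081126-40082910. The RefSeq promoter table held 6 of the 10 genes (Fosb, Junb, Egr1, Egr2, Ier2 and Dusp1). Each window, 250 bases before to 50 bases after the annotated start, was searched on both strands for the CArG box, which binds serum response factor, the cyclic AMP response element (CRE, TGACGTCA), the AP-1 site (TGANTCA), the EGR site (GCGNGGGCG) and the kappaB site. The 4 windows with a match are shown because, by exact matches, they split the genes into a CArG pair and a CRE pair. Capitals mark the matched letters. Near matches were not counted, and those to the CRE in the Egr1 and Egr2 windows are not marked.
Egr1, chr18:26736828-26737127, plus strand: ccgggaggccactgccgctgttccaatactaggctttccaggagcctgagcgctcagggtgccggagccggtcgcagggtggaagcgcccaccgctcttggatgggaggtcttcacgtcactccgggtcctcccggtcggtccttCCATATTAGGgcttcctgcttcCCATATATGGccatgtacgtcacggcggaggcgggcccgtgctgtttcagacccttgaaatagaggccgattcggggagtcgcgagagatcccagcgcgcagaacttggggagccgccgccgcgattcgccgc
Egr2, chr20:21054392-21054691, minus strand: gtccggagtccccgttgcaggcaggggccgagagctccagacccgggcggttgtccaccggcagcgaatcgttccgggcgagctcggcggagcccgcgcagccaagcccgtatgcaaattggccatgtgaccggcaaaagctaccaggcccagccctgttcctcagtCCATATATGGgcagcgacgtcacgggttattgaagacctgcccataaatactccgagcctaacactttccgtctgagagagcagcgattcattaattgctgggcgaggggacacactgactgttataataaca
Ier2, chr19:40399123-40399422, plus strand: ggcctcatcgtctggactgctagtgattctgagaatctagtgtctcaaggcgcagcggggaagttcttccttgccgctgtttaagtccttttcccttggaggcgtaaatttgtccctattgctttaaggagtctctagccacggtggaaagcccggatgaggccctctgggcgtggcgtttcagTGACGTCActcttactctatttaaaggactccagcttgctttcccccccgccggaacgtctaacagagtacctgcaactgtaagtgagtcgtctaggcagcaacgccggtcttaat
Dusp1, chr10:17184603-17184902, plus strand: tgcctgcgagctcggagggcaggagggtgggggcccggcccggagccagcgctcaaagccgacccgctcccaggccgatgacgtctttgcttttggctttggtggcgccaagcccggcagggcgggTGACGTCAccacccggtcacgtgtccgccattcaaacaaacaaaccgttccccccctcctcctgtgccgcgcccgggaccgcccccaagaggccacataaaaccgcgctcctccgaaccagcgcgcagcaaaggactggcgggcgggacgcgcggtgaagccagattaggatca

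The Egr1 window held 2 CArG boxes, at positions -105 to -96 and -83 to -74 from the start, and the Egr2 window held 1, at -83 to -74. A CArG box stood in 1.64% of the 33469 rat promoter windows. The CRE stood at -66 to -59 in Ier2 and at -124 to -117 in Dusp1, against 1.83% of all windows. The AP-1 site (7.33% of all windows), the EGR site (4.98%) and the kappaB site (7.51%) matched none of the 6 windows. A match is a string of letters and says nothing of binding in these cells.

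**Figure D1:**
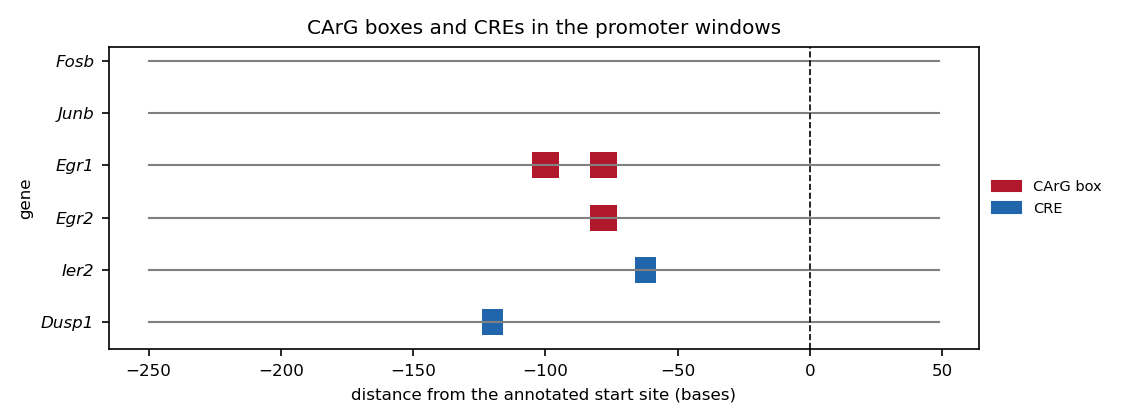
The x axis is the distance in bases from the annotated start site (dashed line), each grey line is 1 gene's promoter window, and blocks mark CArG boxes (red) and CREs (blue). Egr1 has 2 CArG boxes and Egr2 has 1, Ier2 and Dusp1 have 1 CRE each, and the Fosb and Junb windows hold no block.

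All 15 probe sets passed the filter on low values, and 12853 of the 14217 genes did. The median intensity per array ran between 32.72 and 35.61, close to each other across the groups. One control pool, made from CTL rats 5, 6 and 7 (CTL 5-6-7), stood apart from the other CTL pools in the very genes described here: 166 genes (1.29%) were at least 2-fold above both other CTL pools there, against 3 genes in CTL 1-3-4 and 12 in CTL 8-9-10, and Fos, Junb, Egr1, Atf3 and Ier3 were 5 of the 166. Its summed intensity of neutrophil markers was 3982, against 1242 and 1272 in the other CTL pools, and that of T and NK cell markers was 4013, against 808.6 and 1502. That of erythrocyte and platelet markers was 17690, against 3092 and 7157. Its alveolar macrophage markers summed to 26830, against 29790 and 28090. In bulk RNA, fewer cells of a type and less RNA per cell cannot be told apart. Comparisons with CTL are therefore given with and without this pool. Among the COMB pools, COMB 2-3 stood apart, with 188 genes at least 2-fold above and 165 at least 2-fold below both other COMB pools and no member among them, and its T and NK cell markers summed to 1696, against 9933 and 8353. In the comparisons between groups, 4 member calls were lost without COMB 2-3 (Fosb and Ier3 against CTL, Jun against LPS and Ier2 against HPO). Another 4 were gained (Junb and Dusp1 against LPS, Egr1 and Dusp1 against HPO). Junb also gained a call in the interaction, the test described further below.

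After combined LPS and hypoxia, Jun, Ier3 and Dusp1 were higher than in the controls and Fosb was lower. Against CTL, 3 members were higher in COMB, where 11.0% of all genes tested were called higher, and 1 was lower, where 11.0% of all genes were called lower (limma, Benjamini-Hochberg adjusted p under 0.05). Against HPO, Jun, Junb, Ier2 and Ier3 were higher, 4 members beside 9.18% of all genes, and no member was lower, beside 9.36%. Against LPS, Jun alone passed the test, beside 8.64% of all genes called higher and 5.04% called lower. No member was called higher than CTL in LPS or in HPO.

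**Figure D2:**
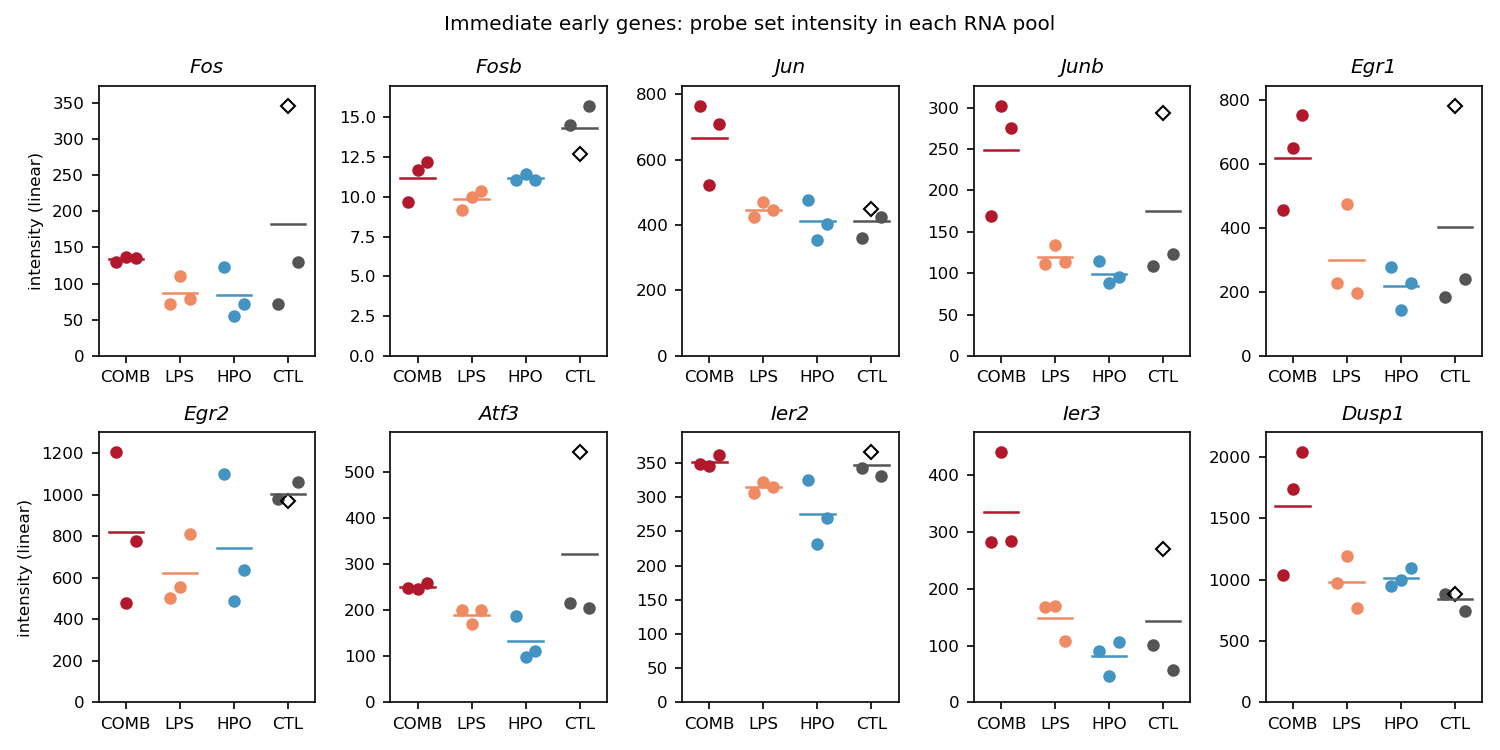
Each panel plots 1 gene's probe set intensity (y axis, linear scale from 0) in the 3 RNA pools of COMB, LPS, HPO and CTL (x axis); horizontal lines are group means and the open diamond is the pool CTL 5-6-7. The COMB pools of Jun, Ier3 and Dusp1 lie above all CTL pools, while in Fos, Junb, Egr1 and Atf3 the diamond lies within or above the COMB pools.

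Jun, the core partner of AP-1, had intensities of 764, 521 and 709 in the COMB pools, 426, 469 and 446 in the LPS pools, 475, 354 and 404 in the HPO pools and 359, 450 and 425 in the CTL pools. Every COMB pool was above every pool of the other groups, and the remaining groups overlapped. The mean was 665 ± 127 in COMB and 411 ± 46.9 in CTL (SD, n = 3 each). The log2 fold change was 0.68 against CTL (SE 0.15, adjusted p = 0.00885), 0.55 against LPS (adjusted p = 0.0366) and 0.68 against HPO (adjusted p = 0.0108). The calls against CTL and HPO held when each of the 12 arrays was left out in turn, while that against LPS held in 6 of 12 and was lost without any LPS pool, without COMB 2-3 or COMB 12-13-14, or without CTL 8-9-10 (adjusted p up to 0.117). After quantile normalization the value against LPS was 0.51 (adjusted p = 0.053). The call against CTL was lost with the mean of all Jun probe sets (0.40, adjusted p = 0.0633) and that against HPO in a fit of only COMB and HPO (0.68, adjusted p = 0.0602). Jun had the only call against LPS, which was also lost in a fit of only COMB and LPS and with the mean of all Jun probe sets. Junb and Ier3 were called in that fit instead, and Dusp1 with the means of probe sets. The other 2 Jun probe sets gave smaller values against CTL. Probe set 1374404_at gave a log2 fold change of 0.32 (adjusted p = 0.115) and 1389528_s_at one of 0.20 (adjusted p = 0.488), whereas against HPO both passed, with 0.69 (adjusted p = 0.00456) and 0.60 (adjusted p = 0.0414). Against LPS, 1374404_at passed, with 0.49 (adjusted p = 0.032), and 1389528_s_at did not, with 0.32 (adjusted p = 0.27). The increase over HPO was thus read by all 3 probe sets and that over CTL by 1 of 3. The 3 are not independent readings, since 1374404_at and 1389528_s_at were annotated to the same sequence record.

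Junb, which forms AP-1 dimers of weaker activity than Jun, had intensities of 169, 302 and 275 in COMB, 111, 134 and 114 in LPS, 115, 87.6 and 95.8 in HPO and 109, 294 and 123 in CTL. The COMB pools lay above all LPS and HPO pools, and CTL 5-6-7 reached their level. Junb rose against HPO by a log2 fold change of 1.28 (SE 0.32, adjusted p = 0.0186), a call lost without HPO 2-4-11, COMB 10-11 or COMB 12-13-14 (adjusted p of 0.0647, 0.0655 and 0.0611). Against LPS the value was 1.01 (adjusted p = 0.0609) and against CTL 0.60 (adjusted p = 0.218). Without CTL 5-6-7 it was 1.05 against CTL (adjusted p = 0.00795), so 1 control pool decided that call, and against LPS it passed without the same pool (adjusted p = 0.00916) or without COMB 2-3 (adjusted p = 0.0237).

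Fos, the founding member of its family, did not pass the test in any comparison. Its intensities were 130, 137 and 135 in COMB, 72.0, 111 and 78.1 in LPS, 124, 55.8 and 72.0 in HPO and 71.5, 345 and 130 in CTL. The COMB pools were close together and above all LPS and HPO pools, and the CTL pools ran from below to far above them. The log2 fold change of COMB was -0.14 against CTL (SE 0.45, adjusted p = 0.864), 0.64 against LPS (adjusted p = 0.375) and 0.75 against HPO (adjusted p = 0.307). Without CTL 5-6-7 the value against CTL turned to 0.47 (adjusted p = 0.37). A further Fos probe set, 1371283_at, was between 22.8 and 30.3 on every array and did not follow these differences.

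Fosb lay near the bottom of the scale, at 9.69, 11.7 and 12.1 in COMB, 9.17, 10.0 and 10.4 in LPS, 11.1, 11.4 and 11.0 in HPO and 14.5, 12.7 and 15.7 in CTL. The 20th percentile of an array was between 10.13 and 11.25, and Fosb exceeded it on 7 of 12 arrays. All CTL pools were above all pools of the other groups. It fell by 0.33 on the log2 scale in COMB against CTL (SE 0.11, adjusted p = 0.0476) and by 0.49 in LPS against CTL (adjusted p = 0.0386), and the value in HPO against CTL was -0.32 (adjusted p = 0.308). These calls rest on differences of a few units at the level of the weakest signals, and few held when 1 array was left out. The call in COMB held in 3 of 12 such fits (without CTL 5-6-7, HPO 3-5-12 or COMB 12-13-14) and that in LPS in 5 of 12 (without CTL 5-6-7, HPO 3-5-12 or any COMB pool), with adjusted p up to 0.185 and 0.176, both without CTL 8-9-10.

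Egr1, a zinc finger factor that activates inflammatory genes, had intensities of 455, 648 and 752 in COMB, 227, 475 and 197 in LPS, 277, 145 and 228 in HPO and 183, 780 and 240 in CTL. The COMB pools were above all HPO pools, whereas 1 LPS pool (5-7-11) and 1 CTL pool (5-6-7) lay within or above their range. No comparison passed the test: the log2 fold change of COMB was 0.90 against CTL (SE 0.48, adjusted p = 0.231), 1.12 against LPS (adjusted p = 0.155) and 1.53 against HPO (adjusted p = 0.0524). Without CTL 5-6-7 it was 1.53 against CTL (adjusted p = 0.017) and 1.53 against HPO (adjusted p = 0.011). The call against HPO was gained in 4 of the 12 fits that left out 1 array (CTL 1-3-4, CTL 5-6-7, LPS 5-7-11 or COMB 2-3), with adjusted p between 0.011 and 0.171 over the 12.

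Egr2, whose window shares a CArG box with that of Egr1, was ordered differently. It was at 1203, 477 and 777 in COMB, 505, 556 and 809 in LPS, 1100, 489 and 637 in HPO and 981, 969 and 1060 in CTL. The CTL pools were close together and above all LPS pools, while COMB and HPO each spread widely. No comparison passed the test, and the log2 fold changes against CTL were -0.39 for COMB (SE 0.33, adjusted p = 0.46), -0.72 for LPS (adjusted p = 0.343) and -0.52 for HPO (adjusted p = 0.709). Across the 12 arrays the log2 levels of Egr1 and Egr2 correlated at r = 0.078, and at -0.032 without CTL 5-6-7, as a description of arrays that share groups. The second Egr2 probe set, 1398266_a_at, was low on all arrays, between 10.7 and 16.3.

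Atf3 was at 248, 246 and 259 in COMB, 200, 170 and 201 in LPS, 188, 98.8 and 110 in HPO and 216, 541 and 205 in CTL. All HPO pools and all LPS pools were below all CTL pools, and the COMB pools were above both single stimuli. COMB against CTL gave a log2 fold change of -0.20 (adjusted p = 0.715), and without CTL 5-6-7 it was 0.25 (adjusted p = 0.496), with every COMB pool above the remaining CTL pools. The largest difference was in HPO against CTL, a log2 fold change of -1.18 (SE 0.32) that did not pass the adjustment (adjusted p = 0.222), and it was -0.72 without CTL 5-6-7 (adjusted p = 0.382). COMB against HPO gave 0.97 (adjusted p = 0.061), and without that control pool the same difference had an SE of 0.19 in place of 0.32 and passed (adjusted p = 0.00703), as it did without HPO 7-8-9 (adjusted p = 0.0313).

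Ier2, a nuclear protein of the same early class whose window holds a CRE, had the narrowest range relative to its level. It was at 349, 345 and 362 in COMB, 306, 323 and 315 in LPS, 326, 232 and 269 in HPO and 343, 365 and 331 in CTL. COMB and CTL overlapped, and both lay above all LPS and HPO pools. The log2 fold change of 0.37 in COMB against HPO (SE 0.11) passed the test at an adjusted p of 0.0475 and held in 1 of 12 fits that left out 1 array, that without HPO 7-8-9 (adjusted p up to 0.159, without HPO 2-4-11). With each array centred on its median the value was 0.34 (adjusted p = 0.0696).

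Ier3, which limits apoptosis and feeds back on NF-kB, had the largest log2 fold change of the 10. It was at 282, 440 and 284 in COMB, 168, 169 and 107 in LPS, 89.8, 46.2 and 107 in HPO and 101, 270 and 57.9 in CTL. Every COMB pool was above every pool of the other groups, and every LPS pool was above every HPO pool. The mean was 335 ± 90.4 in COMB and 80.8 ± 31.2 in HPO (SD, n = 3 each), a log2 fold change of 2.09 (SE 0.47, adjusted p = 0.0107) or 4.26-fold. That call held without each array in turn and under all 25 settings of the limma fit tried, though not by the methods' t-test after adjustment. Against CTL the value was 1.48 (adjusted p = 0.0444) and held in 3 of 12 fits that left out 1 array (CTL 5-6-7, HPO 2-4-11 or HPO 3-5-12; adjusted p up to 0.174, without CTL 8-9-10), and it was 2.09 without CTL 5-6-7 (adjusted p = 0.00299). Against LPS it was 1.17 (adjusted p = 0.126), and the same value passed without CTL 5-6-7 (adjusted p = 0.0415).

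Dusp1, the phosphatase that ends p38 and JNK signalling and the second gene with a CRE, was at 1036, 1738 and 2038 in COMB, 977, 1196 and 768 in LPS, 952, 996 and 1095 in HPO and 885, 888 and 745 in CTL. All COMB and all HPO pools were above all CTL pools, and COMB 2-3 lay within the range of the LPS and HPO pools. The mean was 1604 ± 515 in COMB and 840 ± 81.4 in CTL (SD, n = 3 each). The log2 fold change against CTL was 0.88 (SE 0.22, adjusted p = 0.0157), lost without CTL 8-9-10 (adjusted p = 0.0662), COMB 10-11 (0.0531) or COMB 12-13-14 (0.0599). Against LPS it was 0.68 (adjusted p = 0.0694) and against HPO 0.61 (adjusted p = 0.0889), and without COMB 2-3 both passed (adjusted p of 0.00373 and 0.00425). The second probe set, 1368147_at, was low, between 11.0 and 28.7, and gave 0.49 against CTL (adjusted p = 0.102) and 0.66 against LPS (adjusted p = 0.047). In contrast to the transcription factors with a high CTL 5-6-7, Dusp1 in that pool was 1.00 times the higher of the other CTL pools.

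**Figure D3:**
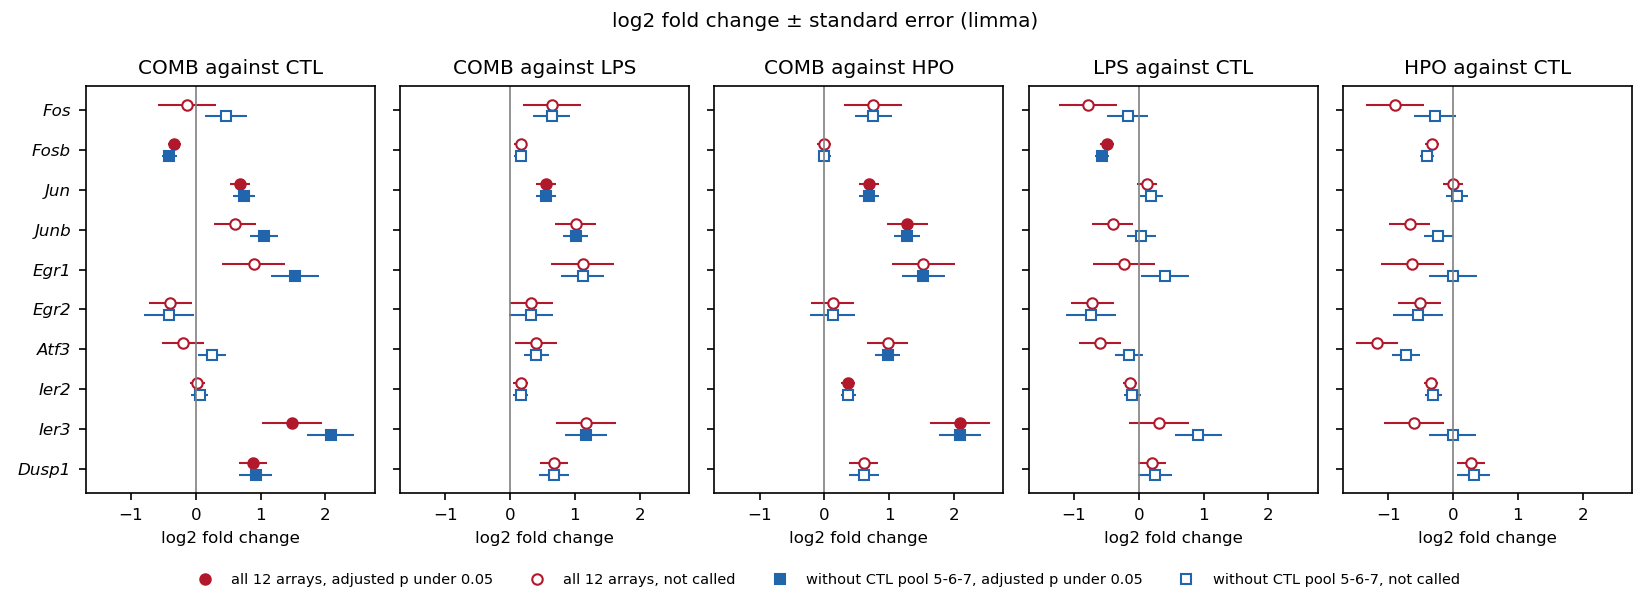
Points are log2 fold changes (x axis) with limma standard errors for each gene (y axis) in 5 comparisons, with all 12 arrays (red circles) and without the pool CTL 5-6-7 (blue squares); filled symbols passed an adjusted p under 0.05. Ier3 reaches 2.09 in COMB against HPO, and Junb and Egr1 pass against CTL only in the fit without that pool.

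By the order of group means, COMB was highest for Jun, Junb, Egr1, Ier2, Ier3 and Dusp1, and CTL was highest for Fos, Fosb, Egr2 and Atf3, though for Fos and Atf3 that place rested on CTL 5-6-7, without which the log2 fold change of COMB against CTL was 0.47 for Fos (adjusted p = 0.37) and 0.25 for Atf3 (adjusted p = 0.496). Fosb had the same mean in COMB and HPO (11.2). Among neighbours in these orders, Jun in COMB against LPS and Fosb in COMB against CTL passed the test, and Fosb in HPO against CTL did not. Counting pools that did not overlap, 3 members were higher in COMB than in CTL, where 17.6% of all genes were, 6 were higher in COMB than in LPS (Fos, Jun, Junb, Atf3, Ier2 and Ier3), where 19.5% of all genes were, and 7 were higher in COMB than in HPO (the same 6 and Egr1), where 13.9% were. The median log2 fold change of the 10 members was 0.31 in COMB against CTL (0.61 without CTL 5-6-7), 0.60 in COMB against LPS and 0.72 in COMB against HPO, beside -0.03, 0.00 and -0.02 over all genes tested. These comparisons share the COMB pools.

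LPS alone gave 1 call, the fall of Fosb, where 1.54% of all genes were called lower and 1.24% higher. Fosb, Egr2, Atf3 and Ier2 were lower in every LPS pool than in every CTL pool, where 18.7% of all genes were. The median log2 fold change of the members was -0.32, and -0.03 without CTL 5-6-7. Hypoxia alone gave no call among the members, where 0.0311% of all genes were called higher and 0% lower. At an unadjusted p under 0.05 in limma, Fosb, Atf3 and Ier2 had lower levels, where 4.12% of all genes did, and the methods' t-test with no adjustment called 1 member lower (Fosb), beside 3.73% of all genes. Fosb, Atf3 and Ier2 were also lower in every HPO pool than in every CTL pool, where 6.80% of all genes were. Dusp1 was higher in every HPO pool than in every CTL pool, where 8.19% of all genes were. The median log2 fold change of the members in HPO against CTL was -0.56, and -0.25 without CTL 5-6-7.

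LPS against HPO gave no call among the members, where 3.08% of all genes were called higher and 5.20% lower; no member had an unadjusted p under 0.05 in limma, where 8.20% of all genes did with a higher level and 15.0% with a lower one, and the methods' t-test with no adjustment called 1 lower (Fosb), beside 13.0% of all genes. Whether hypoxia made a different difference with LPS than without it was tested as an interaction, and no member passed, where 0.156% of all genes were called above 0 and 0.0233% below. At an unadjusted p under 0.05, 8 members were above 0 (all but Egr2 and Dusp1), where 8.42% of all genes were. Without CTL 5-6-7 there were 6, where 7.05% of all genes were, and Fos (unadjusted p = 0.0538 by limma) and Jun (0.0585) were no longer among them. Without COMB 2-3, Junb passed the test of the interaction (1.94, adjusted p = 0.0409). The interaction estimate was above 0 for all 10 members, with a median of 1.19 beside 0.01 over all genes, and 0.90 without CTL 5-6-7.

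Leaving out CTL 5-6-7 changed the count against CTL to 5 members higher in COMB (Jun, Junb, Egr1, Ier3 and Dusp1), where 9.87% of all genes were, and 1 lower (Fosb), where 9.82% were. Pools that did not overlap then numbered 7 higher members, where 21.9% of all genes were. It also changed the estimate of spread in the comparisons that hold no CTL pool, with 3 members higher in COMB than in LPS (Jun, Junb and Ier3; 8.49% of all genes) and 5 higher than in HPO (Jun, Junb, Egr1, Atf3 and Ier3; 9.18%).

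**Figure D4:**
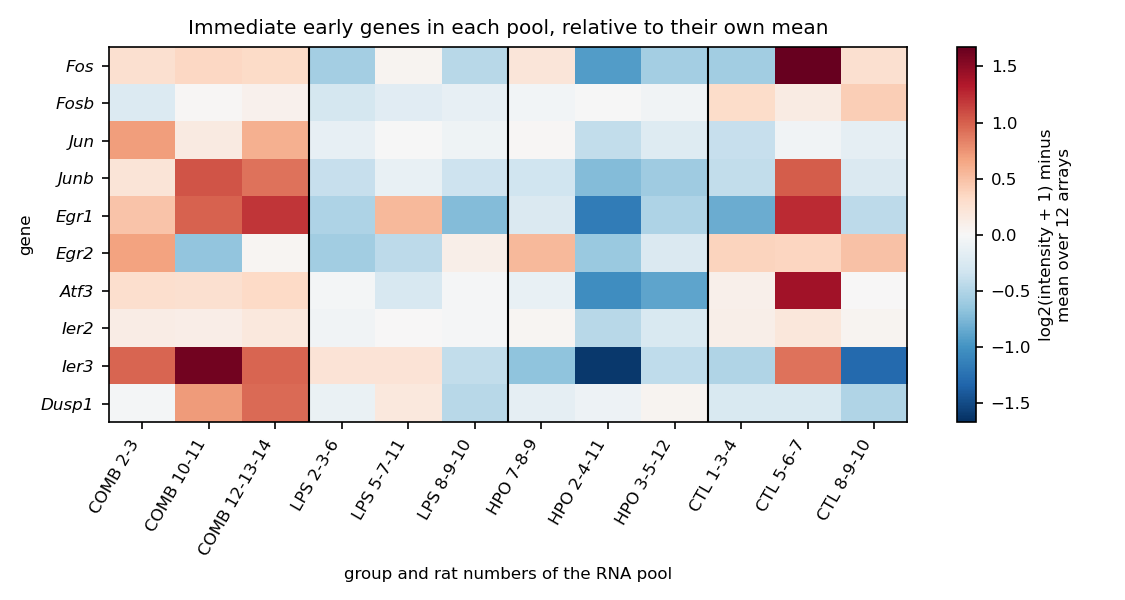
Colours give each gene's log2(intensity + 1) minus its mean over the 12 arrays (rows, genes; columns, RNA pools named by group and rat numbers; black lines separate COMB, LPS, HPO and CTL). The pool CTL 5-6-7 is red for Fos, Junb, Egr1, Atf3 and Ier3, as are the COMB pools, which are paler than it for Fos and Atf3. The other CTL pools are paler than CTL 5-6-7 or blue for these genes, and for Fos CTL 8-9-10 has the colour of the COMB pools.

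Levels of the members were also set against each other across pools. Junb and Egr1 correlated at r = 0.935 over the 12 arrays (0.916 without CTL 5-6-7), Egr1 and Ier3 at 0.862 (0.858), Fos and Atf3 at 0.861 (0.7) and Atf3 and Ier2 at 0.86 (0.954). Fosb and Egr2 correlated with no other member above 0.533. The genes outside the members whose levels followed Egr1 most closely were Antxr2 (r = 0.947), a receptor for anthrax toxin, Snx18 (0.922), Dusp2 (0.915), a nuclear MAP kinase phosphatase, Zfp36 (0.915), which speeds the decay of cytokine mRNAs, and Cxcl2 (0.913), a neutrophil chemokine. For Fos they were Osm (0.906), a cytokine of activated macrophages, Ms4a7 (0.893), Kdm6b (0.884), a histone demethylase, Dtx1 (0.865) and Mmp12 (0.859), the macrophage elastase. For Atf3 they were Dtx1 (0.946), Osm (0.881), Ppp1r3b (0.872), Ugcg (0.87) and Ms4a7 (0.868). Without CTL 5-6-7 the Egr1 values stayed between 0.891 and 0.953, and the highest Fos value was 0.778. These correlations describe 12 arrays in 4 groups and are given without a test.

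Other lists of the same system were counted beside the members. The calls of every list below stand beside the shares over all genes. In COMB against CTL, 11.0% were called higher and 11.0% lower (9.87% and 9.82% without CTL 5-6-7). Against LPS the shares were 8.64% and 5.04%, and against HPO 9.18% and 9.36%. Of 38 further immediate early genes tested, 4 were higher and 3 lower in COMB against CTL, and 12 were higher and 2 lower without CTL 5-6-7. Irf1, an interferon and NF-kB responsive transcription factor, rose by a log2 fold change of 1.44 (adjusted p = 0.0314), Cebpd by 0.73 (adjusted p = 0.00221), and Klf4, a zinc finger factor, fell by 0.92 (adjusted p = 0.00316). Against LPS, 3 of the 38 were higher and none lower, among them the endothelial and lymphocyte factor Klf2 (1.35, adjusted p = 0.0221) and Mcl1, which blocks apoptosis (0.75, adjusted p = 0.0236). Of 17 partners and competitors of AP-1, 2 were higher and 1 lower in COMB against CTL. Ddit3, the stress factor CHOP, rose by 1.14 (adjusted p = 0.0269), Atf4 rose by 0.45 (adjusted p = 0.00274), and Cebpg fell by 0.47 (adjusted p = 0.00686). Both lists held genes called in either direction, and their median log2 fold changes against CTL were 0.12 and 0.05, beside -0.03 over all genes.

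Among 11 other MAP kinase phosphatases, 1 was higher and 4 were lower in COMB against CTL. Dusp14 rose by 1.80 on the log2 scale (adjusted p = 0.00074), Dusp5 fell by 1.01 (adjusted p = 0.00391) and Dusp7 fell by 0.62 (adjusted p = 0.00286). Dusp1 and Dusp14 were the family's members called higher. Of 25 upstream kinases and factors, 3 were higher and 3 lower, with Map3k8, the kinase that links NF-kB to ERK, at 0.97 (adjusted p = 0.00722) and the histone kinase Rps6ka5 at -1.54 (adjusted p = 0.00391). Of 15 mRNA decay factors, 2 were higher and 4 lower, led by the RNase Zc3h12a (2.44, adjusted p = 3.12e-06) and Zfp36l1 (1.62, adjusted p = 3.57e-05). The list of NF-kB feedback genes, which also held the cytokine genes Il1b and Tnf, was called in 1 direction. Of its 14 genes, 11 were higher in COMB against CTL, 9 against LPS and 13 against HPO, and none was lower. Against CTL, Il1b rose by 3.21 on the log2 scale (adjusted p = 0.00641), Tnf by 2.58 (adjusted p = 6.23e-05) and Nfkbiz by 2.40 (adjusted p = 0.000133). The median log2 fold change against CTL was -0.17 for the phosphatases, 0.00 for the upstream kinases, 0.12 for the decay factors and 0.97 for the NF-kB feedback genes.

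Heat shock genes, another early stress class, had another order of groups. Of 18 tested, 9 were higher in LPS against CTL, where 1.24% of all genes were, and 12 were lower in COMB against LPS, where 5.04% were. Their summed intensity was 13540 to 14180 in COMB, 19920 to 22660 in LPS, 10900 to 12710 in HPO and 14350 to 14580 in CTL. That of the 10 members was 4646 to 5602 in COMB, 3002 to 3613 in LPS, 2516 to 3658 in HPO and 3263 to 4915 in CTL.

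Marker genes of several cell types were called in COMB against CTL. Few or none were among the B cell, the endothelium and fibroblast, and the erythrocyte and platelet markers. Of 11 neutrophil markers, 5 were higher and 2 lower in COMB against CTL, and their sum was 7836 to 14610 in COMB, 2986 to 3659 in LPS, 901.3 to 1265 in HPO and 1242 to 3982 in CTL. Of 25 airway epithelium markers, 22 were higher against CTL, with sums of 29060 to 40710 in COMB, 18570 to 21230 in LPS, 21060 to 21940 in HPO and 8555 to 12150 in CTL. Of 17 T and NK cell markers, 4 were higher (12 without CTL 5-6-7), with sums of 1696 to 9933 in COMB, 867.7 to 1288 in LPS, 1145 to 1511 in HPO and 808.6 to 4013 in CTL. The median log2 fold change against CTL was 1.41 for the neutrophil, 2.10 for the airway epithelium and 1.61 for the T and NK cell markers, beside -0.03 over all genes. Alveolar macrophage markers were present on every array and summed to 24150 to 27520 in COMB, 29240 to 31190 in LPS, 27550 to 27900 in HPO and 26830 to 29790 in CTL. Of 12 tested, 2 were higher and 4 lower in COMB against CTL (median log2 fold change -0.20), and 1 was higher and 5 were lower against LPS. Of 15 alveolar epithelium markers, 8 were higher and 1 lower in COMB against CTL (median 1.09), with sums of 3893 to 5222 in COMB, 2349 to 3138 in LPS, 2556 to 2853 in HPO and 2039 to 2992 in CTL. Of 7 recruited monocyte markers, 3 were higher and 1 lower in COMB against CTL (median 0.63). Of 7 B cell markers none was called (median 0.56), and of 12 endothelium and fibroblast markers 1 was higher (median 0.05). Of 10 erythrocyte and platelet markers 1 was higher (median 1.05), and 5 were without CTL 5-6-7. The part of these cells in the members' levels was not tested.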

How the data were processed

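RNA pools of BALF cells from 4 groups (COMB, LPS, HPO and CTL) were measured on 12 Affymetrix Rat Genome 230 2.0 arrays. The table deposited by the authors held 1 normalized linear intensity per probe set and array; its normalization method is not given in the sources used here, and the authors' fold criterion was 2-fold. Of 31099 probe sets, 20832 named 1 gene, 436 several and 9831 none in the platform annotation. After removal of 57 control probe sets, 25692 probe sets were tested, those that exceeded their array's 20th percentile on at least 3 arrays. The methods state a 20th percentile limit and a paired test; pools had no stated pairing, so the methods' t-test was run unpaired as an alternative. Values were analysed as log2(intensity + 1), which understates the change of weak signals, with limma 3.58.1 (R 4.3.3), 4 group means, and Benjamini-Hochberg adjustment over all probe sets (threshold 0.05). The fit had 8 residual and 3.935 prior degrees of freedom, and 3 arrays per group limit the precision. Counts over genes used 1 probe set per gene, that of highest mean. The fit was tested on simulated data. Promoters came from RefSeq (GRCr8) and were searched in Python 3.11.15. The members and lists were chosen with earlier results of these data known. Named beside the members were, per list, up to 3 genes with the largest change among those called in COMB against CTL and up to 2 among those called in COMB against LPS, and the 5 genes most correlated with Fos, Egr1 and Atf3. Alternatives covered normalization, filter, pseudocount, weights, the samples fitted, the probe set, the test, the threshold and leaving out each array.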

Additional observations from a re-analysis of the deposited data

Results flagged for a closer look

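Atf3 and Ier2 drew attention because hypoxia went with opposite orders of the pools without and with LPS, and LPS with opposite orders without and with hypoxia. For both genes, every HPO pool was below every CTL pool while every COMB pool was above every LPS pool, and every LPS pool was below every CTL pool while every COMB pool was above every HPO pool. Of all genes tested, 44 (0.342%) showed the hypoxia form of this and 46 (0.358%) the LPS form. The test of the difference itself, the interaction in limma, gave 1.58 on the log2 scale for Atf3 (adjusted p = 0.181) and 0.50 for Ier2 (adjusted p = 0.215), and neither passed.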

How the results depend on the processing

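Depth cannot be read from intensities, pools of 2 or 3 rats hide the spread between animals, and Fosb lies at the level of the weakest signals. In COMB against CTL, 4 members were called. The count was 2 with weights by the number of rats, 1 in a fit of only the groups compared, 0 and 2 by the methods' t-test with and without adjustment, 1 with a 2-fold minimum added, 1 by 2-fold with no test, and 1 to 6 without 1 array. In LPS against CTL (1 called) it was 0 with a filter at the 50th percentile, with the 20th percentile required on all 12 arrays, with a pseudocount of 16, and with a 2-fold minimum with or without the test, 2 with array weights, 0 and 3 by the methods' t-test with and without adjustment, and 0 to 1 without 1 array. With CTL and LPS pools of shared rat numbers as a replicate block it was 0, and 199 probe sets in place of 525 passed. The deviations of these pools from their group means correlated at -0.008 to 0.039. Some of these pools share only part of their rat numbers, and the labels do not say what the numbers mean. The correlations therefore cannot settle whether the numbers pair the pools. In HPO against CTL (0 called) it was 1 with array weights, by the methods' t-test without adjustment and by 2-fold. In COMB against LPS (1 called) it was 0 after quantile normalization, 3 with array weights, 2 with weights by rats, 2 in a fit of the groups compared, 0 and 6 by the methods' t-test with and without adjustment, 0 with a 2-fold minimum, 3 by 2-fold with no test, and 0 to 3 without 1 array. In COMB against HPO (4 called) it was also 4 in a fit of the groups compared, with Egr1 and Atf3 in place of Jun and Ier2, 0 by the methods' t-test adjusted, 2 with a 2-fold minimum and 2 to 5 without 1 array. In LPS against HPO (0 called) it was 1 with array weights and 1 by the methods' t-test without adjustment. For the interaction (0 called) it was 2 with array weights, 5 by 2-fold with no test and 0 to 1 without 1 array (Junb, without COMB 2-3). Over all probe sets, the calls ranged with the settings that kept every array between 544 (methods' t-test, adjusted) and 7300 (array weights) around 4895 in COMB against CTL, 1 and 4425 around 525 in LPS against CTL, 0 and 3576 around 9 in HPO against CTL, 14 and 5843 around 3060 in COMB against LPS, 17 and 6774 around 4004 in COMB against HPO, 0 and 5764 around 1848 in LPS against HPO, and 20 and 2116 around 35 for the interaction. The cause was not tested. Of the single members' values under an alternative, 1848 kept their side of the threshold, 95 lost and 53 gained a call. Among the 1848, 34 changed sign with no call in either fit.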

Other observations

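The pools with the most members at their group's highest level were COMB 12-13-14 (5 of 10), LPS 5-7-11 (7 of 10), HPO 7-8-9 (7 of 10) and CTL 5-6-7 (8 of 10), where 31.9%, 41.2%, 20.7% and 27.4% of all genes were highest. The LPS, HPO and CTL pools of these all list a rat numbered 7 in their labels, a coincidence noticed after the values were seen; the numbers are of different animals and the meaning of the numbering is not stated.

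The genes that most set CTL 5-6-7 apart, chosen after their values were seen, were Cxcl11 (1001, against 15.4 and 19.2 in the other CTL pools), Ifit3 (2432, against 47.2 and 52.1), S100a9 (2011, against 20.6 and 60.2) and Rsad2 (3435, against 55.1 and 131). Cxcl11, Ifit3 and Rsad2 are interferon-induced genes and S100a9 is abundant in neutrophils. Ptgs2, an immediate early gene that makes prostaglandins, was at 182 there, against 8.41 and 10.6.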
